A study of Mus musculus with 6 samples.

Results

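Clu encodes clusterin, also called apolipoprotein J, and was followed here on microarrays of embryonic mouse ear tissue in which Tbx1 had been deleted from mesoderm. Tissue dissected around the inner ear at embryonic day 11.5 held the otic vesicle, an epithelial sac that later forms the ear's sensory organs, and periotic mesenchyme. The 3 Mest-KO arrays came from embryos with a T-Cre conditional knockout of Tbx1, a T-box transcription factor gene, and the 3 control arrays from embryos heterozygous for the same conditional deletion. Both groups carried T-Cre, which acts in mesoderm, so the controls were not wild type. RNA of 3 embryos, left and right ears together, was pooled for each array, so no single embryo or ear was measured. The otic epithelium is not a known site of T-Cre action, and the second Tbx1 allele is not stated in the labels.

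Clu was 1 of 18193 genes with a probe set of their own on the array, and 4 of the 45101 probe sets are annotated to it. The gene was chosen by its large fall between these same Mest-KO and control arrays, so its values are a description and no test of them is given.

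Clusterin is a secreted glycoprotein that is cut from a precursor into an alpha and a beta chain held together by disulfide bonds. Outside cells it binds unfolding proteins as a chaperone, travels with lipoprotein particles and inhibits the membrane attack complex of complement. It is taken up through lipoprotein receptors such as megalin. Epithelia that face a fluid-filled space are among its known sources, and cells under heat or other stress raise its transcription.

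Clu was lower in every Mest-KO pool than in every control pool on all 4 of its probe sets. Mean intensities in Mest-KO were between 33.1% and 39.3% of those in control. The brightest probe set, 1454849_x_at, had intensities of 600.5, 626 and 593 in Mest-KO 1, 2 and 3, against 1916, 1641 and 1643 in control 1, 2 and 3. The lowest control pool was therefore 2.62 times the highest Mest-KO pool, and the groups were far apart compared with the spread inside either. The means were 607 ± 17.3 in Mest-KO and 1733 ± 159 in control (SD, n = 3 arrays each), a difference of -1.49 ± 0.09 on the log2 scale. Here and below a log2 difference is Mest-KO minus control of log2(intensity + 16), with the standard error of a limma fit, and adding 16 understates the change of dim genes.

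The other 3 probe sets repeated this pattern at lower signal. Probe set 1437458_x_at had intensities of 595, 549.6 and 521 in Mest-KO 1, 2 and 3, against 1554, 1346 and 1332 in control 1, 2 and 3, and its log2 difference was -1.32 ± 0.10. Probe set 1437689_x_at had 344, 311 and 255 in the Mest-KO pools, against 924, 838 and 751 in the control pools, with a difference of -1.42 ± 0.13. Both showed Mest-KO 3 as the lowest pool and control 1 as the highest. Probe set 1418626_a_at had 280.2, 265 and 225 in Mest-KO, against 777, 731 and 819 in control, and gave the largest difference, -1.54 ± 0.11. The 95% intervals of the 4 differences overlapped, from -1.79 to -1.29 for this last probe set and from -1.54 to -1.10 for the one with the smallest difference. The suffix _x_at marks probes that may also match other transcripts and _a_at marks probes shared by several transcripts of the gene, so the 4 probe sets do not separate Clu transcript forms.

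**Figure D1:**
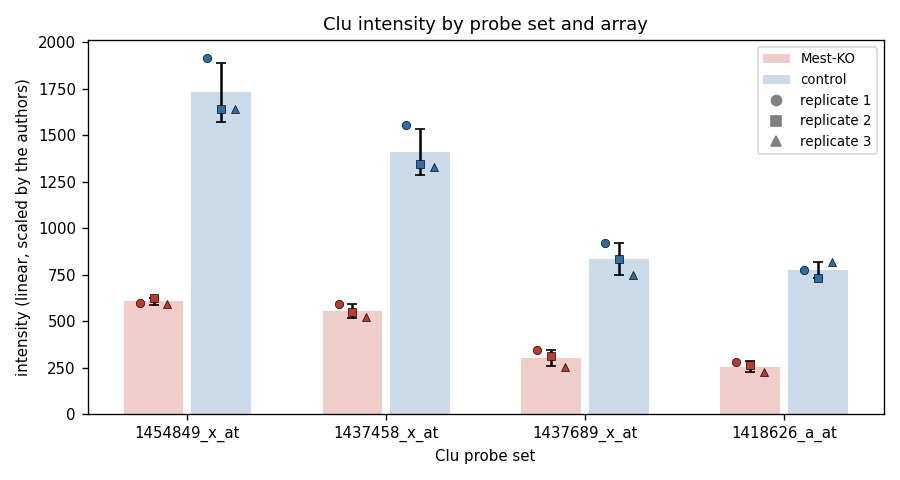
Intensity of Clu (linear scale) on each of its 4 probe sets, with bars and whiskers for the mean ± SD of 3 arrays and a point for each array, Mest-KO left and control right. On the brightest probe set the Mest-KO arrays lie between 593 and 626 and the control arrays between 1641 and 1916, and the groups are apart on each probe set.

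Pools of the same genotype differed little in Clu. The coefficient of variation over the 4 probe sets was 2.85% to 14.7% in Mest-KO and 5.71% to 10.3% in control. Mest-KO 3 was the lowest pool on all 4 probe sets. In control, pool 1 was highest on the 3 probe sets ending in _x_at, while control 3 was highest on 1418626_a_at. After each probe set was centred on its mean over the 6 arrays, the average of the 4 was -0.62, -0.69 and -0.85 in Mest-KO 1, 2 and 3 and 0.83, 0.67 and 0.67 in control 1, 2 and 3 (log2). Pairing each of the 3 Mest-KO arrays with each of the 3 control arrays on each probe set gave 36 comparisons, and Clu was lower in Mest-KO in 36 of them, with the control level 2.18 to 3.64 times that of Mest-KO. The lowest Clu intensity on any array was 20.1 times the highest of 27 probe sets for bacterial transcripts that had not been added, so Clu was read well above background in both groups. In dissected tissue, fewer cells making Clu and less Clu RNA per cell cannot be told apart.

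Beside the other genes, Clu combined a large decrease with a small spread. Of 14170 genes tested, 19 had a decrease at least as large as that of Clu, Clu included, and only 63 (0.445%) differed by at least 1 on the log2 scale in either direction. The larger of the ranges within Mest-KO and within control was 0.22 for Clu (log2), whereas for the 18 others it lay between 1.13 for Shh and 4.36 for Ttr. The groups did not overlap for 14.5% of all genes, and for 5.22% with Mest-KO lower. Clu had a gap of 1.37 (log2) between its lowest control and its highest Mest-KO array, and 3 genes, Clu included, had a gap of at least that size. The other 2 were AI506816, an expressed sequence, with a gap of 2.67, and Skor1, a corepressor gene of neural tube interneurons, with 1.73. The range within a group was 1.33 for AI506816 and 2.31 for Skor1. These positions describe the contrast on which Clu was chosen.

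**Figure D2:**
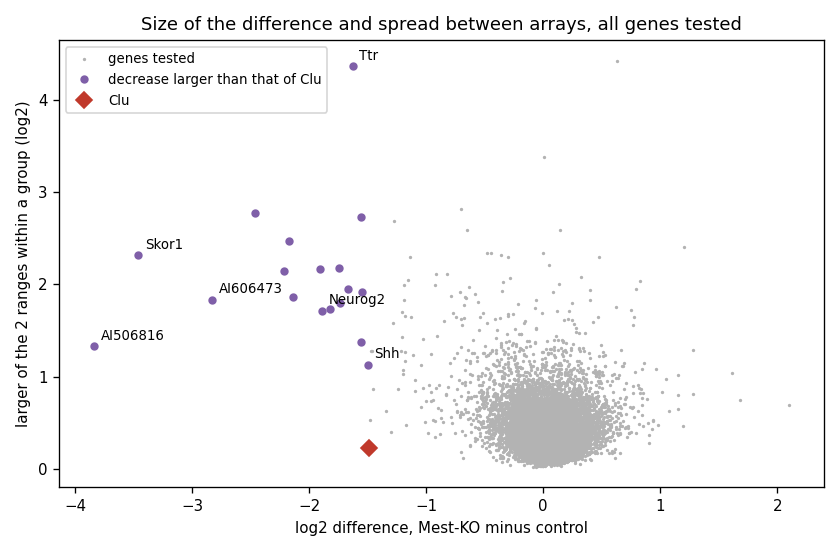
Each point is 1 of 14170 genes, with the log2 difference (Mest-KO minus control) on the x axis and the larger of the log2 ranges within the groups on the y axis. Clu lies at -1.49 with a range of 0.22, below the 18 genes of larger decrease, whose ranges start at 1.13.

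The arrays were scaled by the authors to a common trimmed mean of 500.002, and their medians ran from 60.0 to 70.6. The limma test called 21 genes (0.148% of those tested) at an adjusted p under 0.05, 12 higher and 9 lower in Mest-KO. The count rested on single arrays, and was 82 without control 2 and 2 without control 1. Tbx1 itself read 520.5, 578 and 409.9 in Mest-KO and 525, 567 and 447 in control, and the difference of -0.03 ± 0.14 did not pass (limma adjusted p = 0.967). That probe set does not check the labels, because its place relative to the deleted part is not stated. Otic and mesenchymal tissue was present in both groups. Oc90, encoding the otoconial protein otoconin of the otic vesicle, read 3620, 3050 and 3782 in Mest-KO, against 2915, 3378 and 2932 in control. Pou3f4, a transcription factor gene of periotic mesenchyme, read 240.0, 327 and 414 in Mest-KO, against 584, 698 and 411 in control.

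No gene for a clusterin receptor passed the test, which 0.148% of all genes passed. Of 12 genes for receptors, co-receptors and adaptors of clusterin uptake, 11 were tested, 8 higher and 3 lower in Mest-KO, with a median log2 difference of 0.06 beside 0.01 over all genes. By limma 0 of the 11 passed, and 0 had an unadjusted p under 0.05, a level reached by 8.97% of all genes. Vldlr, a lipoprotein receptor gene, had the smallest p. Vldlr read 386, 389.7 and 455 in Mest-KO, against 629.7, 509 and 423 in control (-0.32 ± 0.15; limma adjusted p = 0.565), and the groups overlapped. The groups were apart on 2 of its 5 other probe sets, which gave -0.62 ± 0.16 and -0.47 ± 0.16. Lrp2, encoding megalin and chosen after its value was seen, had 82.4, 48.4 and 64.03 in Mest-KO, against 43.7, 61.7 and 56.8 in control, a difference of 0.19 ± 0.19. Plxna4, a plexin gene, differed by -0.16 ± 0.14, and Dab1, an adaptor of the lipoprotein receptors, by 0.14 ± 0.09.

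Other secreted chaperones had no common direction. Of 11, 9 were tested, with 5 higher, 4 lower and a median of 0.01. By limma 0 passed, and 1 had an unadjusted p under 0.05, beside 0.148% and 8.97% of all genes. That gene was A2m, encoding the protease inhibitor and chaperone alpha-2-macroglobulin, which read 189.6, 195 and 131 in Mest-KO, against 115, 103 and 115 in control. The Mest-KO arrays were all above the control arrays, opposite to Clu, but the difference of 0.54 ± 0.17 did not pass (limma adjusted p = 0.302). Itm2b, encoding a membrane protein with a chaperone domain, differed by 0.13 ± 0.07. Ttr, encoding the thyroid hormone carrier transthyretin made by choroid plexus, read 4388, 3542 and 198 in Mest-KO, against 6454, 2886 and 5282 in control. Mest-KO 3 alone was far below the rest, and the groups overlapped (-1.63 ± 0.88; limma adjusted p = 0.630). Pzp and Apcs were at or below the highest unspiked bacterial probe set on all 6 arrays.

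No gene for an apolipoprotein or an HDL protein, a class that includes Clu by function, passed the test. Of 16, 12 were tested, with 7 higher, 5 lower and a median of 0.03, and the differences ran from -0.71 ± 0.54 for Apoa2 to 0.48 ± 0.17 for Lcat. By limma 0 passed, and 2 had an unadjusted p under 0.05, beside 0.148% and 8.97% of all genes. Apod, encoding a small lipid carrier, read 1763, 1772 and 1624 in Mest-KO, against 1963, 1970 and 1887 in control. The groups were apart by a small step of -0.17 ± 0.08 (limma adjusted p = 0.549), while a dim second probe set gave -1.60 ± 0.35. Lcat, encoding an enzyme that esterifies cholesterol in HDL, read higher at 226, 190.3 and 179 in Mest-KO, against 129, 115 and 171 in control (limma adjusted p = 0.387). Apoe, encoding a major lipid carrier, differed by -0.31 ± 0.15, and the apolipoprotein genes Apoc1 and Apom by 0.32 ± 0.24 and 0.31 ± 0.17, each with overlapping groups.

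No gene of complement, whose terminal complex clusterin inhibits, passed the test. Of 16, 12 had a probe set of their own, 7 were tested, 5 were higher and 2 lower, and the median was 0.15. By limma 0 passed and 0 had an unadjusted p under 0.05, beside 0.148% and 8.97% of all genes. Hc, C8a and C9 were at or below background on all 6 arrays. Among the inhibitors, Serping1 differed by 0.25 ± 0.13 and Cd55 by 0.15 ± 0.15. Cd59a, which blocks the same terminal complex as clusterin, differed by 0.23 ± 0.12. The 2 lower genes of the list were Cr1l at -0.06 ± 0.09 and Vtn at -0.01 ± 0.24. The groups overlapped for each of these genes.

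Chaperones inside the cell and stress genes, which cells raise together with Clu under stress, spanned a narrow range of differences, from -0.20 to 0.19 for the endoplasmic reticulum list and from -0.22 to 0.14 for the heat shock list. All 18 genes of the endoplasmic reticulum list were tested, 12 higher and 6 lower with a median of 0.01, and by limma 0 passed and 0 had an unadjusted p under 0.05. Xbp1, a transcription factor gene of the unfolded protein response, read 1774, 1747 and 1781 in Mest-KO, against 1594, 1602 and 1563 in control (0.15 ± 0.07; limma adjusted p = 0.576). The other 3 Xbp1 probe sets gave -0.02 to 0.08. Calr, encoding the chaperone calreticulin, differed by -0.09 ± 0.06, and Herpud1, a gene of protein degradation at the reticulum, by 0.14 ± 0.11. In the heat shock list 12 of 14 were tested, 4 higher and 8 lower with a median of -0.05, and by limma 0 passed and 0 had an unadjusted p under 0.05. Its genes of smallest p were the chaperone genes Hspb8 (-0.22 ± 0.13) and Hsp90aa1 (-0.14 ± 0.08) and the co-chaperone gene Bag3 (0.13 ± 0.13). Other Hsp90aa1 probe sets of high signal gave 0.0038 ± 0.09 and 0.07 ± 0.07.

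Cell death regulators were tested because clusterin is known to bind BAX. Of 19, 15 were tested, 9 higher and 6 lower, with a median of 0.04, and by limma 0 passed and 0 had an unadjusted p under 0.05. Pmaip1, encoding the BH3 protein NOXA, read 245, 246 and 241 in Mest-KO, against 192, 174 and 238 in control. Its groups were narrowly apart (0.27 ± 0.14; limma adjusted p = 0.615). Bcl2, which protects cells from death, differed by -0.20 ± 0.11, and Bid, which promotes it, by 0.18 ± 0.10.

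Factors reported to act on Clu transcription were measured as RNA only. Of 19, 16 were tested, 8 higher and 8 lower, with a median of 0.02. By limma 0 passed and 1 had an unadjusted p under 0.05, a level reached by 8.97% of all genes. That gene was Jun, an AP-1 subunit, which read 2828, 2984 and 2981 in Mest-KO, against 2537, 2476 and 2601 in control. The Mest-KO arrays were all higher, by 0.21 ± 0.07 (limma adjusted p = 0.355). Its AP-1 partner Fos read 75.4, 115 and 97.9 in Mest-KO, against 85.5, 77.0 and 542 in control. Control 3 alone was high in Fos, and Egr1, an early response gene, was also highest there at 1424, whereas control 3 was the highest control for Clu on 1 of its 4 probe sets. Egr1 differed by 0.21 ± 0.22 and Fos by -0.65 ± 0.54.

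Counting each gene once, the 8 lists held 123 genes, of which 99 were tested and 0 passed in limma. An unadjusted p under 0.05 was found for 4 of the 99 (4.04%, beside 8.97% of all genes), 3 higher and 1 lower in Mest-KO. The groups did not overlap for 8 of the 99 (8.08%, beside 14.5% of all genes). The lists were therefore no richer in differences than the array as a whole.

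**Figure D3:**
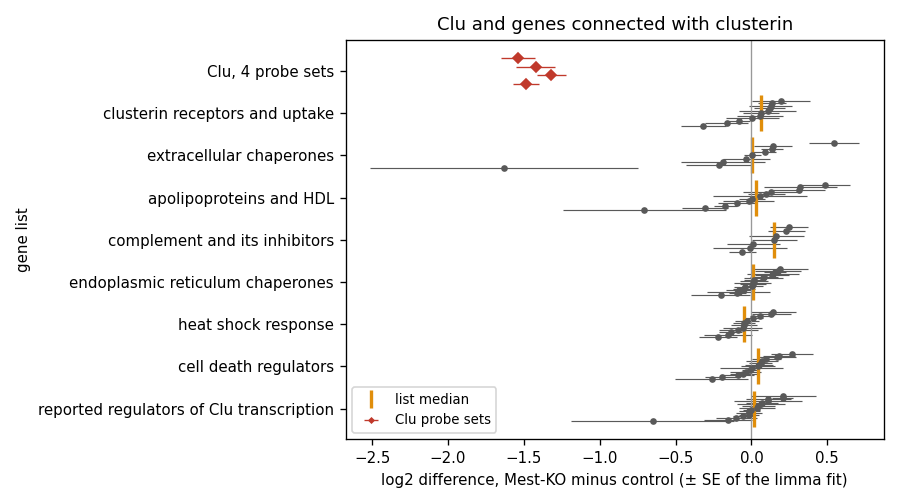
Log2 difference (Mest-KO minus control, ± standard error) of the 4 Clu probe sets and of each tested member of 8 gene lists, with the list median as a vertical tick. The Clu probe sets lie between -1.54 and -1.32 and the list medians between -0.05 and 0.15, and Ttr is the member at -1.63 with the widest error.

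The 7 tested genes next to Clu on its chromosome had differences between -0.28 and 0.19, against -1.49 for Clu. In the RefSeq gene order of GRCm38.p6 the 5 nearest protein-coding genes are Scara5, Pbk, Esco2, Ccdc25 and Scara3 on one side and Gulo, Adam2, Ephx2, Chrna2 and Ptk2b on the other. Gulo, Adam2 and Chrna2 were too dim to be tested. By limma 0 of the 7 others passed, and 1 had an unadjusted p under 0.05, beside 8.97% of all genes. Pbk, encoding a mitotic kinase, was that gene and averaged 2062 ± 94.0 in Mest-KO and 2422 ± 53.2 in control (SD, n = 3 arrays each), a small difference of -0.23 ± 0.07 (limma adjusted p = 0.322). Scara3, a scavenger receptor gene and the nearest tested neighbour, averaged 421 ± 90.9 in Mest-KO and 509 ± 49.5 in control and differed by -0.28 ± 0.15 with overlapping groups. Esco2, a cohesion gene, differed by -0.11 ± 0.09, Ccdc25 by -0.08 ± 0.19, Ephx2, an epoxide hydrolase gene, by 0.05 ± 0.20, Ptk2b, a kinase gene, by 0.10 ± 0.16 and Scara5 by 0.19 ± 0.16.

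Several genes followed nearly the same course over the 6 arrays as Clu. Likeness was measured as the root mean square difference between log2 profiles after each was centred on its mean over the 6 arrays. Against 14169 other genes, the 10 closest lay between 0.157 and 0.300, with the next gene at 0.302 and a median of 0.765, while the 4 Clu probe sets differed among themselves by 0.0959 to 0.147. Because a profile this close must be low in Mest-KO, no test of these genes is given here. Foxa1 is also a member of a marker list, and its limma result is given with that list. Fam162b was closest, at 73.2, 103 and 76.4 in Mest-KO, against 309, 274 and 209 in control. Its difference of -1.48 ± 0.18 was almost that of Clu, although its mean was much nearer to background.

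Tafa4, encoding a secreted peptide, came next at 314, 244 and 287 in Mest-KO, against 768, 791 and 595 in control (-1.30 ± 0.14). Foxa1, a forkhead transcription factor gene of endoderm, read 129, 112 and 139.8 in Mest-KO, against 370.1, 265 and 416 in control (-1.34 ± 0.17). For Foxa1 control 2 was the lowest control, as it was not for Tafa4 or Fam162b. Anxa8, an annexin gene, read 82.3, 55.9 and 81.6 in Mest-KO, against 232, 164 and 163 in control (-1.18 ± 0.19). Control 1 was its highest control array, as on the brightest Clu probe set. Plac8, encoding a small cysteine-rich protein, read 104, 85.5 and 97.6 in Mest-KO, against 276, 200.2 and 159.7 in control (-0.999 ± 0.19). These 5 genes had intensities above background on every array.

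The remaining 5 of the 10 were dim and kept their place among the 10 closest in 2 to 4 of 6 other settings. Cntn3, encoding a neural adhesion protein, averaged 30.8 ± 4.77 in Mest-KO and 97.3 ± 32.6 in control. Lrrc4c, encoding a synaptic adhesion protein, averaged 29.97 ± 8.27 in Mest-KO and 84.0 ± 28.5 in control. Kcnh3, a potassium channel gene, averaged 17.6 ± 4.76 in Mest-KO and 49.9 ± 3.59 in control (SD, n = 3 arrays each), but its 3 other probe sets gave differences of -0.15 to 0.21. The hindbrain homeobox gene Hoxb1 was not above background in any Mest-KO array, and its control mean of 45.1 ± 18.9 was at least 2.18-fold higher. The transcript 9130410C08Rik completed the 10. Fam162b, Tafa4, Foxa1 and Plac8 were among the 10 closest in 6 of 6 other settings and Anxa8 in 5. Cntn3 was among them in 4 of 6, at both other pseudocounts too, Hoxb1 and 9130410C08Rik in 3, and Lrrc4c and Kcnh3 in 2.

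**Figure D4:**
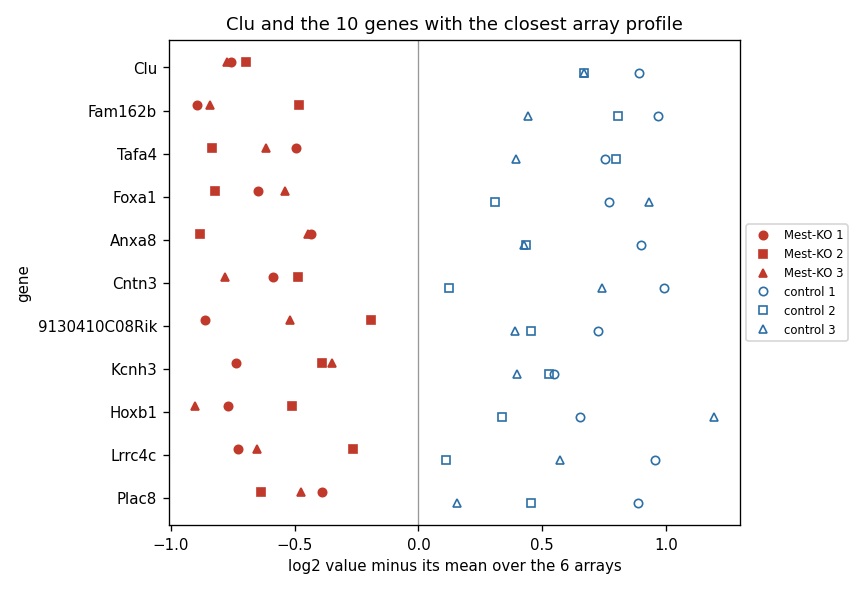
Log2 value of Clu and of the 10 genes closest to it, each minus its mean over the 6 arrays, with filled symbols for Mest-KO and open symbols for control. Clu lies between -0.77 and -0.70 in Mest-KO and between 0.67 and 0.89 in control, and the 10 genes run from the closest, Fam162b, down to Plac8.

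Markers of the cell types that the dissection could hold moved between arrays to different degrees, and 15 marker lists were set beside Clu. Each list was summarised per array as the mean log2 value of its tested genes minus the mean over the 6 arrays, on which scale Clu was between -0.77 and -0.70 in Mest-KO and between 0.67 and 0.89 in control. The part of cell makeup in the fall of Clu was not tested. The otic epithelium list (16 tested of 19) lay between -0.12 and 0.06 in Mest-KO and between 0.01 and 0.07 in control, with overlapping groups and a median difference of -0.01. Of the 16 genes, 7 were higher and 9 lower in Mest-KO. By limma 0 of the 16 passed, and 3 were lower at an unadjusted p under 0.05, a level reached in that direction by 3.24% of all genes. Cdh1, encoding E-cadherin of epithelia, read 1450.4, 1306 and 1693 in Mest-KO, against 1802, 1845 and 2110 in control (-0.37 ± 0.11; limma adjusted p = 0.278). Otx1, a homeobox gene of the otic vesicle, was dim at 22.001, 17.8 and 29.2 in Mest-KO, against 70.4, 42.8 and 42.7 in control (-0.79 ± 0.20; limma adjusted p = 0.209). The groups were apart for both genes. Gata3, a transcription factor gene of the otic vesicle, differed by -0.62 ± 0.21 with overlapping groups. Among the 7 higher genes, Fgf10, a growth factor gene, differed by 0.31 ± 0.15 with the groups apart, and Oc90 by 0.18 ± 0.09 with overlapping groups.

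The periotic mesenchyme list (13 of 13) lay between -0.11 and 0.05 in Mest-KO and between 0.01 and 0.08 in control, with a median difference of -0.09. By limma 1 of the 13 passed, which was higher, and 3 were lower at an unadjusted p under 0.05. Meox1, a paraxial mesoderm gene, was the one that rose, by 1.15 ± 0.18 (limma adjusted p = 0.0433). The 3 lower genes were Pou3f4 (-0.76 ± 0.21, overlapping groups) and the mesenchymal transcription factor genes Tbx15 (-0.36 ± 0.10) and Prrx2 (-0.30 ± 0.11), whose groups were apart. The surface ectoderm list (9 of 9) lay between -0.23 and 0.18 in Mest-KO and between 0.04 and 0.08 in control. The median difference was -0.10, with 3 genes higher and 6 lower, from -0.43 to 0.12. The epithelial genes Grhl3 and Perp were among the lower, at -0.43 ± 0.19 and -0.23 ± 0.10.

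The means of the pharyngeal endoderm and floor plate lists were, like Clu, lower in each Mest-KO array than in each control array. The groups overlapped once the 3 genes of largest difference were left out of the first list, or Shh out of the second. Such a step narrows a separation by construction. The endoderm list (9 tested of 12) lay between -0.33 and -0.21 in Mest-KO and between 0.16 and 0.36 in control, and Foxa1 passed (limma adjusted p = 0.0191). The floor plate list (6 of 7) lay between -0.30 and -0.08 in Mest-KO and between 0.01 and 0.27 in control. Both lists hold Shh, encoding the sonic hedgehog ligand, which read 376, 233 and 164 in Mest-KO, against 738, 519 and 971 in control (-1.50 ± 0.27; limma adjusted p = 0.0806). The differences between group means of these lists were -0.56 and -0.31, whereas the median differences of their genes were -0.18 and -0.14.

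Both lists were averaged again without their genes of largest difference, a step chosen after seeing the data. Leaving out such genes narrows a separation by construction, and lists whose means were higher in Mest-KO were not averaged again in this way. Without Shh the other 5 floor plate genes lay between -0.10 and 0.07 in Mest-KO and between -0.05 and 0.09 in control, so the groups overlapped, with a difference of -0.07. Among them Spon1, encoding a secreted adhesion protein, read higher, opposite to Clu, at 2345, 2950.0 and 2479 in Mest-KO, against 2320.2, 2279 and 2027 in control (0.22 ± 0.10; limma adjusted p = 0.536). The axon guidance gene Ntn1 differed by 0.06 ± 0.13. Foxa2, Slit1 and Sulf1 read lower, at -0.35 ± 0.22, -0.22 ± 0.17 and -0.06 ± 0.06, each with overlapping groups. Without Shh the other 8 endoderm genes still separated the groups, with a difference of -0.44. Without Shh, Foxa1 and Pax1, a paired box gene of pharyngeal pouches at -1.47 ± 0.30, the other 6 endoderm genes lay between -0.14 and 0.02 in Mest-KO and between 0.01 and 0.12 in control, with overlapping groups and a difference of -0.12.

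Hindbrain neural tube markers varied most between pools of the same genotype, where Clu varied little. The list (13 tested of 15) stood at -0.61, -0.07 and -0.85 in Mest-KO 1, 2 and 3, and at 0.96, -0.39 and 0.95 in control 1, 2 and 3. Control 2 was thus 1.35 below control 1 in these markers and 0.22 below it in Clu. With the list mean as a covariate the Clu difference was -1.40 on the brightest probe set, beside -1.49 without it. The list mean itself differed by -1.02 between the groups, so this fit cannot separate neural tube content from genotype. All 13 genes were lower in Mest-KO, as Clu was, with a median difference of -1.09. By limma 0 of the 13 passed, and 7 were lower at an unadjusted p under 0.05, beside 3.24% of all genes in that direction. Neurog2, a proneural gene, differed by -1.89 ± 0.43 and Sox3 by -1.09 ± 0.27. The roof plate and choroid plexus list (8 tested of 10) lay between -0.83 and 0.09 in Mest-KO and between -0.22 and 0.64 in control. Of the 8, 7 were lower in Mest-KO and 1 higher. Msx1 differed by -0.46 ± 0.11 with the groups apart, and Clic6 by -0.55 ± 0.19 with overlapping groups. Rspo1 was the 1 higher gene, at 0.57 ± 0.20, with the groups apart.

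Markers of sensory neurons (12 tested of 13), neural crest and glia (7 of 9) and endothelium (10 of 10) were, in their list means, opposite to Clu, higher in each Mest-KO array than in each control array. Of their tested genes 12, 6 and 10 were higher in Mest-KO, with median differences of 0.27, 0.16 and 0.13. An unadjusted p under 0.05 was found for 7, 3 and 2 of these higher genes, beside 5.73% of all genes in that direction. The neuron list lay between 0.11 and 0.16 in Mest-KO and between -0.18 and -0.06 in control. Pou4f1, a sensory neuron transcription factor gene, rose by 0.59 ± 0.08 (limma adjusted p = 0.0256). Another Pou4f1 probe set of similar brightness gave 0.65 ± 0.27 with overlapping groups. Neurod1, a neurogenic gene, differed by 0.34 ± 0.07. The crest and glia list lay between 0.08 and 0.11 in Mest-KO and between -0.15 and -0.06 in control, with Sox10 at 0.41 ± 0.08 and Ngfr, a neurotrophin receptor gene, at 0.41 ± 0.11. The endothelium list lay between 0.05 and 0.12 in Mest-KO and between -0.13 and -0.04 in control, with the receptor genes Tie1 at 0.54 ± 0.14 and Tek at 0.29 ± 0.08. Of 17 alternatives these calls held in 10 for Foxa1, 7 for Pou4f1 and 6 for Meox1.

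The means of the other lists overlapped between the groups, and by limma 0 of their genes passed. Smooth muscle and pericyte markers (7 tested of 8) lay between -0.16 and 0.24 in Mest-KO and between -0.07 and 0.02 in control. Of these genes 6 were higher and 1 lower, with the contractile protein genes Tagln at 0.11 ± 0.13 and Myh11 at 0.10 ± 0.22. Macrophage markers (11 of 11) lay between -0.02 and 0.20 in Mest-KO and between -0.19 and 0.01 in control. Of these genes 9 were higher and 2 lower, from -0.11 to 0.36. Cd68, a lysosomal protein gene, and the receptor gene Csf1r were among the higher, at 0.36 ± 0.15 and 0.24 ± 0.12. Head muscle markers (9 of 10) lay between -0.42 and 0.44 in Mest-KO and between -0.32 and 0.56 in control. Control 2 was again the control that stood apart. Of these genes 7 were higher and 2 lower, from -0.30 to 0.35. The muscle transcription factor genes Myf5 and Msc were among the higher, at 0.35 ± 0.33 and 0.27 ± 0.16. Erythroid markers (8 of 10) lay between -0.56 and 0.33 in Mest-KO and between 0.02 and 0.20 in control, with the embryonic globin gene Hbb-y at -0.17 ± 0.07 and Epb42, a red cell membrane gene, at -0.50 ± 0.28. Cartilage markers (7 of 7) lay between -0.10 and 0.0027 in Mest-KO and between -0.04 and 0.12 in control. Of these genes 2 were higher and 5 lower, from -0.39 to 0.07. Acan, encoding aggrecan, and Sox6 were among the lower, at -0.39 ± 0.29 and -0.22 ± 0.13. Clu read 1641 in control 2 and 1643 in control 3 on its brightest probe set, and these pools differed in neural tube and muscle markers. Whether such tissue has a part in the fall of Clu was not tested.

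**Figure D5:**
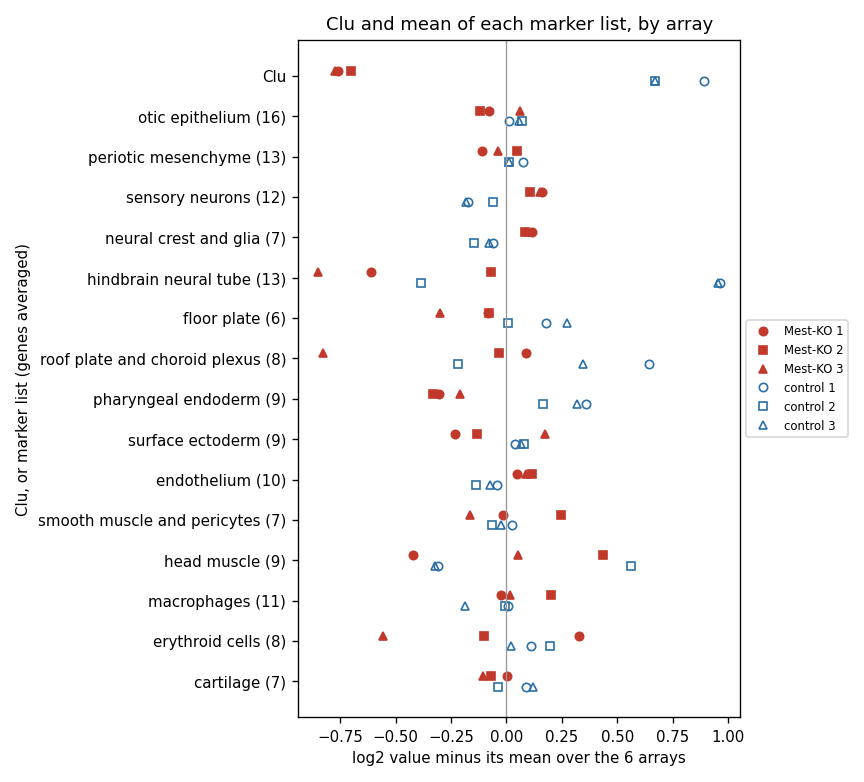
Clu and the mean of each of 15 marker lists on each array (log2, minus the mean over the 6 arrays), with filled symbols for Mest-KO, open symbols for control and the number of genes averaged in parentheses. The pharyngeal endoderm and floor plate means separate the groups in the direction of Clu. Leaving out Shh, the floor plate gene of largest difference, narrows the second by construction, to -0.07 with overlapping groups. The neural tube list spreads the controls from -0.39 to 0.96, and Clu spreads them from 0.67 to 0.89.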

How the data were processed

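The authors deposited linear intensities from Mouse Genome 430 2.0 arrays, 1 column per array, each from 300 ng of total RNA. Per the submitters' processing notes they used Affymetrix Expression Console 1.1, and the summarization and background steps are not stated in the labels. The scaling to a common trimmed mean was read from the values. Symbols came from the platform annotation and were checked against RefSeq names of GRCm38.p6. No coordinates are printed, because the files name no build.

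Control probe sets (64) were left out, values were taken as log2(value + 16), each gene was represented by its brightest probe set, and genes whose mean exceeded the 30th percentile were tested (14170 of 18193). Mest-KO and control were compared across all genes with limma 3.58.1 in R 4.3.3 (eBayes with trend, two-sided, Benjamini-Hochberg at 0.05). Errors on single Clu probe sets and on further probe sets of a gene came from the same model over all probe sets. The number of arrays, 3 in each group, limits the precision, and the steps were tested on simulated data. The labels call the arrays biological replicates.

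Clu, the lists and the tests were chosen with earlier results of these data known. The rule for named genes took Clu, Tbx1, the 10 closest profiles, up to 3 members of each list of related genes and 2 of each marker list by smallest p, and the neighbours of Clu. Oc90, Pou3f4, Prrx2, Gata3, Pax1, Ntn1, Lrp2, Apoa2, Apoc1, Apom, Skor1 and AI506816 were named outside it, after their values were seen. So were Foxa2, Slit1, Sulf1, Cr1l, Vtn, Fgf10 and Rspo1. A motif search in promoters was not run. Alternatives were other pseudocounts, normalizations, filters, variance models and probe set summaries, a replicate block, a neural tube covariate, array weights and leaving out each array.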

Additional observations from a re-analysis of the deposited data

How the results depend on the processing

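On all 4 probe sets Clu kept its direction in each alternative run. Over those that kept all arrays the difference of the brightest probe set ran from -1.55 to -1.40, and over the 6 that left out 1 array from -1.52 to -1.41. For the other 3 probe sets the leave-one-out differences ran from -1.60 to -1.45 (1418626_a_at), from -1.37 to -1.25 (1437458_x_at) and from -1.51 to -1.31 (1437689_x_at). Only 1418626_a_at moved by more than the spread between arrays, to -1.39 with a pseudocount of 64, which shrinks the change of dimmer probe sets by construction. The count of 21 genes passing over all genes was 78 with median centring (22 higher and 56 lower, beside 12 and 9), 7 with the neural tube covariate, 2 without a filter, 1 without the variance trend and 6 with the mean of all probe sets. Leaving out 1 array gave 2 to 82 genes. The lowest came from omitting control 1 (2 genes), Mest-KO 1 (3), control 3 (6) and Mest-KO 2 (9), and the highest from omitting control 2, and the cause was not tested. Replicate numbers did not pair the arrays, since deviations of same-numbered arrays correlated at -0.03, -0.11 and -0.15. A replicate block left the Clu difference at -1.49 and gave 9 genes. Of the 10 genes closest to Clu, 6 were still among the 10 with a pseudocount of 64, 5 with the filter at the 50th percentile and 6 with the mean of all probe sets. The 99 tested genes of the 8 lists had 0 passing in limma in each alternative. Sign changes occurred for differences that did not pass. With the neural tube covariate they were Hsp90aa1 (0.0050), Bcl2 (0.032), Fos (0.236), Msc (-0.061) and Acan (0.416). With the mean of all probe sets they were Hsp90aa1 (0.080) and Bcl2 (0.084). Tbx1 turned with array weights (0.00045), and Ephx2 with quantile normalization (-0.012) and median centring (-0.016). Leaving out 1 array also turned single differences, whose ranges were -0.139 to 0.101 for Tbx1, -1.10 to 0.190 for Fos, -0.0042 to 0.507 for Egr1, -0.016 to 0.239 for Tagln, -0.057 to 0.264 for Myh11, -0.187 to 0.084 for Ccdc25 and -0.103 to 0.236 for Ephx2.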
